A study of Homo sapiens with 6 samples.

Results

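The genes described here encode the parts of the MHC class I antigen presentation pathway: the heavy chains *HLA-B* and *HLA-C*, the light chain *B2M*, the peptide transporter *TAP1* and *TAP2*, the loading factor *TAPBP*, the immunoproteasome subunits *PSMB8* and *PSMB9*, and the transactivator *NLRC5*. They were chosen by name, and all 9 were found among the 20347 gene symbols for which normalized counts were deposited. All 9 also passed the filter on low values (an average of 10 or more over the 6 libraries), which left 12773 tested genes. The question put to them was whether their mRNA levels differ between PaTu8988t cells with and without SAMD1.

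PaTu8988t is an established human cell line from pancreatic ductal adenocarcinoma (PDAC). RNA-seq was made from 3 replicates of Control cells, which had received an unspecific guide RNA, and from 3 clonally independent SAMD1 KO clones made with CRISPR/Cas9, so that 6 libraries were compared. SAMD1 is a chromatin protein that binds CpG islands. The labels name no treatment with interferon or any other agent, and the study used puromycin to select its clones. Each clone grew from a cell selected after editing, so differences that a clone carried by chance are part of the spread of the SAMD1 KO group.

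MHC class I molecules carry short peptides from inside the cell to its surface, where cytotoxic T cells inspect them. The proteasome cuts proteins into peptides, TAP1 and TAP2 pump the peptides together into the endoplasmic reticulum, TAPBP (tapasin) holds the empty class I molecule beside the transporter, and the loaded complex of heavy chain, beta-2 microglobulin and peptide then leaves for the cell surface. NLRC5 drives transcription of several of these genes, interferon gamma raises most of them, and loss of the pathway is a known route of immune evasion in carcinoma.

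The libraries held from 35589477 to 45172216 recovered reads. *SAMD1* itself stood at 2231, 2382 and 2299 normalized counts in Control and at 874.1, 1082 and 824.8 in SAMD1 KO, a log2 fold change of −1.32 ± 0.10 (SE, n = 3 per group, limma adjusted p = 0.00072), so the labels matched this gene. Between Control libraries the reads differed with a chi-square per gene of 2.64 to 5.18, and between clones of 50.9 to 58.5, so the clones varied far more among themselves than the Control libraries did. The keratin genes *KRT8* and *KRT18* were abundant, with at least 28724 and 25492 reads in every library, and *EPCAM* had 427 to 725 reads. *KRT19* was listed at 0 in every library and *CDH1* had at most 49 reads, so only some of the epithelial markers were well detected. *KRT7* (log2 fold change 1.46, limma adjusted p = 0.0039) and *KRT18* (0.52, limma adjusted p = 0.060) were called higher in SAMD1 KO, and *KRT8*, *EPCAM* and *CDH1* were not called. The 9 immune cell markers summed to 370 to 397 normalized counts in Control and 262 to 359 in SAMD1 KO, mostly from *CD68* (log2 fold change −0.31, limma adjusted p = 0.155), and *CD3E* and *MS4A1* were at 0. The 8 fibroblast and endothelial markers summed to 132 to 140 in Control and 56.4 to 102 in SAMD1 KO, with *DCN* and *LUM* at 0 and *CDH5* at −1.80 (limma adjusted p = 0.075). All libraries came from cultures of the same cell line. The part of these markers in the values below was not tested. Bulk samples cannot tell fewer cells with a marker from less of its RNA per cell.

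All values below are normalized counts, that is reads divided by a size factor of the library. Differences (SAMD1 KO minus Control) are on the log2(normalized count + 1) scale, which understates those of genes with few reads, and a gene was called when this value was beyond 0.5 with an unadjusted limma p below 0.01. These 2 limits are those of the study, which set them on DESeq2 output, not on limma. On this scale 5.77% of all tested genes were called higher and 2.08% called lower. None of the 9 members was called in either direction with limma, nor with edgeR or DESeq2 on the recovered reads. With any fold change, 2 members (*HLA-C* and *PSMB8*) had an unadjusted p below 0.01 and 3 (also *HLA-B*) below 0.05, each of them lower in SAMD1 KO. The same counts over all tested genes were 6.02% lower with p below 0.01 and 13.5% lower with p below 0.05. The 2 with p below 0.01 became 0 without Control replicate 1, Control replicate 3 or SAMD1 KO clone 1 or with the replicate number as a block, and 1 without Control replicate 2 or SAMD1 KO clone 2. No member had an adjusted p below 0.05 in the limma comparison of all 6 libraries. The median log2 fold change of the members was −0.012, beside −0.0059 for all tested genes.

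Of the 9 members, 7 lie in the major histocompatibility complex on chromosome 6 (GRCh38, GENCODE 44). *HLA-C* spans chr6:31268749-31272130 and *HLA-B* chr6:31353872-31367067, both on the minus strand. In the class II part of the complex, *TAP2* (chr6:32821833-32838739), *PSMB8* (chr6:32840717-32844679) and *TAP1* (chr6:32845209-32853816) follow each other on the minus strand, *PSMB9* (chr6:32844136-32859851) runs against them on the plus strand, and *TAPBP* (chr6:33299694-33314284) lies further along on the minus strand. *B2M* is at chr15:44711358-44718851 and *NLRC5* at chr16:56989485-57083531, both on the plus strand. The annotated extent of *PSMB9* contains that of *TAP1*, but their exons share 0 bases, while *PSMB8* and *PSMB9* share 139 exonic bases on opposite strands. The study made its RNA-seq libraries with a stranded kit. The strand setting of the counting was not given in the sources used here. Whether reads in that stretch were counted by strand is therefore not known.

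Class I promoters share an upstream module with a kappa B site and an interferon-stimulated response element, followed by a CRE half-site and an inverted CCAAT box. The sequences just upstream of *HLA-B* and *HLA-C*, the pair of heavy chains that was lower in the clones, are shown here beside those of *B2M* and *TAP1*, for which this was not so. They were taken from the RefSeq promoter table (GRCh38.p14), are written 5′ to 3′ along the gene's strand, and were shortened to stretches that hold no annotated untranslated region. Capitals mark matches on either strand to AANNGAAA (the core of the interferon-stimulated response element), GGGNNNNNCC (kappa B), TGACG (CRE half-site) and CCAAT, and capitals run together where matches overlap or touch.
*HLA-B*, chr6:31357294-31357429, minus strand: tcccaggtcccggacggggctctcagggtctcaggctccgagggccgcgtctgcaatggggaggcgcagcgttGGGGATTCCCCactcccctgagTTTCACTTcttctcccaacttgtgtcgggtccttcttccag
*HLA-C*, chr6:31272106-31272342, minus strand: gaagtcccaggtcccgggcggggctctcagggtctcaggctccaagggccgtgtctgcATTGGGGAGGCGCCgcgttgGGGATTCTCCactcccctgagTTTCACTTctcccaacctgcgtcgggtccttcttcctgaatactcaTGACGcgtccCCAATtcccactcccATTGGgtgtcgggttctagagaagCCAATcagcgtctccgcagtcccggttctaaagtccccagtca
*B2M*, chr15:44711324-44711508, plus strand: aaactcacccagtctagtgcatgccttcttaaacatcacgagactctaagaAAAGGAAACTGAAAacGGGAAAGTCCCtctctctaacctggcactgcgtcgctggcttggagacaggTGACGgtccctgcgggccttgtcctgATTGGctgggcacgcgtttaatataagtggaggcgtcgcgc
*TAP1*, chr6:32853817-32853954, minus strand: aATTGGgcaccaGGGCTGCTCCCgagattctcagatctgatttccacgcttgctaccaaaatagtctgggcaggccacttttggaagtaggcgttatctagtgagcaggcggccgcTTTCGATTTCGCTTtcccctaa

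Over the 250 bases before the RefSeq start, *HLA-B* and *HLA-C* were 91.9% identical (226 of 246 aligned bases), and each held the response element core, kappa B matches, the CRE half-site and CCAAT matches. *B2M* held the same kinds of match. *TAP1* held overlapping matches to the response element core and kappa B matches, but no TGACG in this window. RefSeq windows were found for 8 of the 9 members, 10 windows in all, since *TAP1* and *PSMB8* have 2 each. The response element core was in 6 of the 10 windows and in 20.3% of the 35116 windows of all genes, the kappa B pattern in 7 and 54.4%, TGACG in 6 and 21.2%, and CCAAT in 5 and 32.0%. The motif GCGC, which the study names as preferred by SAMD1, was in 9 of the 10 windows and in 53.4% of all windows. GCGC contains a CpG, and the member windows held 10 to 21 CpG each, beside a median of 11 over all windows. The part of CpG content in this count was not tested. These matches describe letters only, and no binding was measured in the data used here.

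*HLA-B* and *HLA-C*, classical heavy chains that present peptides to T cells, were both lower in every clone than in every Control library. *HLA-B* had normalized counts of 402.6, 383.5 and 386.0 in Control and 308.5, 252.3 and 346.3 in SAMD1 KO clones 1, 2 and 3, with a mean of 391 ± 10.4 against 302 ± 47.3 (SD, n = 3). Clone 2 was the lowest and clone 3 the nearest to Control, and the groups did not overlap. The log2 fold change was −0.38 ± 0.13 (SE), with a 95% interval from −0.69 to −0.08 (limma p = 0.021, adjusted p = 0.101, exact permutation p = 0.1, the smallest possible with 3 against 3).

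*HLA-C* had 385.5, 374.7 and 359.7 in Control and 268.0, 247.1 and 316.6 in SAMD1 KO, with a mean of 373 ± 13.0 against 277 ± 35.7 (SD, n = 3). The clones kept the order seen for *HLA-B*, and the groups did not overlap. The log2 fold change was −0.44 ± 0.12 (SE), with a 95% interval from −0.71 to −0.16 (limma p = 0.0070, adjusted p = 0.052, exact permutation p = 0.1), which is a level 0.743 times that of Control. Clone 3 decided the side of the cut-off for this gene: without it, the log2 fold change was −0.53 and *HLA-C* was called lower (limma adjusted p = 0.0167, with 0.0167 to 0.205 over all alternatives). Across the 6 libraries the log2 values of *HLA-B* and *HLA-C* had a Pearson r of 0.969, as a description, with the libraries of each group sharing their cells.

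*HLA-E*, whose product is a ligand of NK cell receptors, and which is not among the 9 genes, had 777.8, 772.0 and 813.3 in Control and 721.8, 673.9 and 753.7 in SAMD1 KO, with a log2 fold change of −0.14 ± 0.08 (SE, limma adjusted p = 0.268).

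Reads of *HLA-B* and *HLA-C* are uncertain because the genes are so alike. Whether reads of the other members fit several loci was not checked. The canonical transcripts of *HLA-B* and *HLA-C* are 92.5% identical in the reference. How reads that fit several loci were counted was not given in the sources used here, the cell line's own HLA alleles were not analysed here, and the part of either in these values was not tested. The counts behind them were also modest, 292 to 392 reads a library for *HLA-B* and 271 to 383 for *HLA-C*. An exact Poisson interval for counting error alone gave 361.7 to 447.0 for the highest Control library of *HLA-B* and 224.2 to 282.9 for its lowest clone, while that of clone 3, 312.6 to 382.7, overlapped the intervals of all 3 Control libraries.

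**Figure D1:**
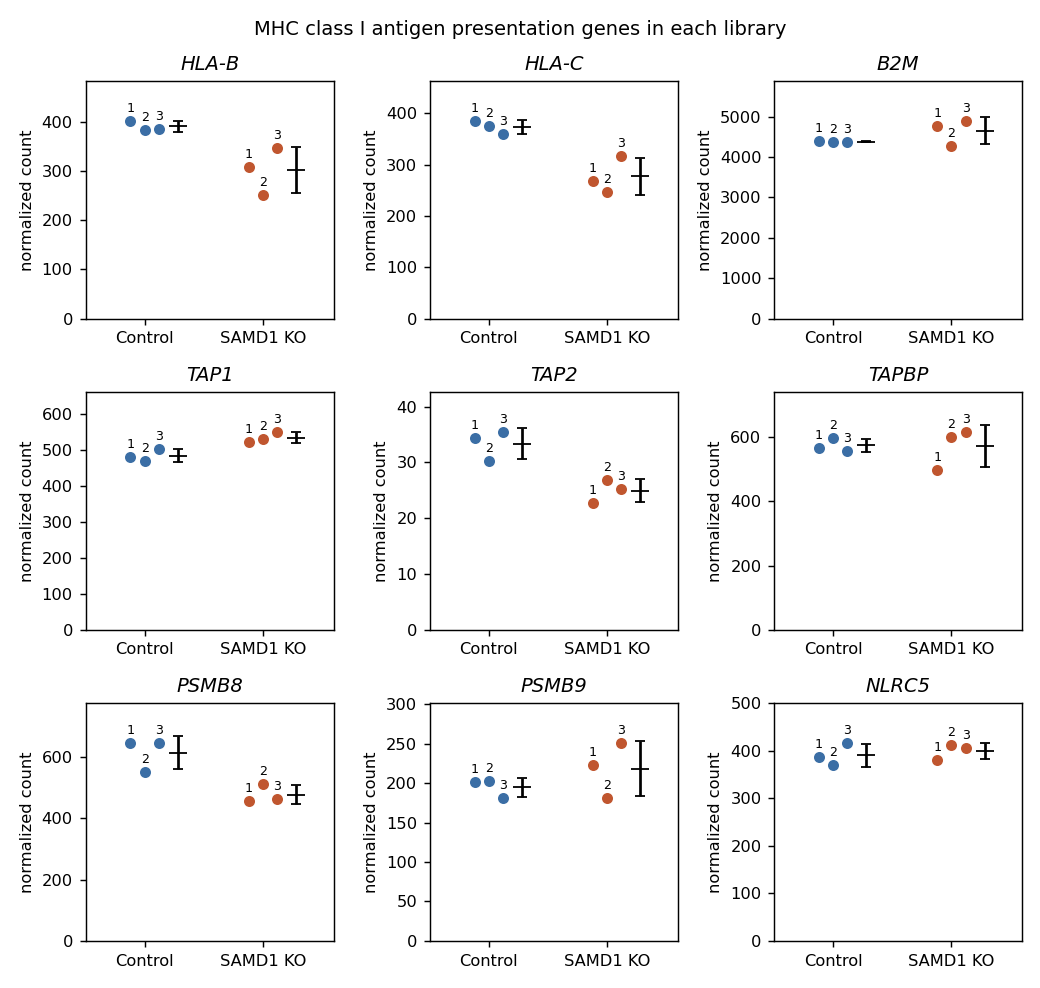
Normalized counts (vertical axes, each from 0) of the 9 members in the 3 Control libraries (blue) and the 3 SAMD1 KO clones (orange), with replicate numbers, and the mean ± SD of each group in black. *HLA-B*, *HLA-C*, *TAP2* and *PSMB8* show every clone below every Control library, *TAP1* every clone above, and the groups of *B2M*, *TAPBP*, *PSMB9* and *NLRC5* overlap.

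*B2M*, the light chain shared by all classical class I molecules, was the most abundant member. It had 4398, 4365 and 4383 in Control and 4781, 4267 and 4903 in SAMD1 KO. The Control libraries lay within a narrow band that the clones straddled, with clone 2 below it and clones 1 and 3 above. The log2 fold change was 0.08 ± 0.06 (SE), with a 95% interval from −0.07 to 0.23 (limma adjusted p = 0.421). It was 0.14 without SAMD1 KO clone 2, 0.04 without clone 3 and 0.13 with regional shifts removed. For all 6 libraries, a fall of *B2M* of the size estimated for *HLA-C* lies outside the interval.

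*TAP1* and *TAP2* encode the partners that form the peptide transporter, and their values pointed in different directions. *TAP1* had 481.6, 468.7 and 504.0 in Control and 523.1, 531.3 and 551.4 in SAMD1 KO, so that every clone was above every Control library. The log2 fold change was small, 0.14 ± 0.08 (SE, 95% interval from −0.04 to 0.33, limma p = 0.109, adjusted p = 0.269, exact permutation p = 0.1).

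*TAP2* was near the lower limit of detection, with 23 to 31 reads a library. Whether its exons overlap those of genes outside the members was not checked. The part of such overlap in its low count was not tested. Its normalized counts were 34.3, 30.3 and 35.5 in Control and 22.7, 26.8 and 25.2 in SAMD1 KO, and the groups did not overlap. The log2 fold change was −0.41 ± 0.21 (SE, 95% interval from −0.90 to 0.08, limma p = 0.089, adjusted p = 0.240, exact permutation p = 0.1). Counting error alone gives an interval of 24.1 to 50.4 for the highest Control library and 14.4 to 34.1 for the lowest clone, which overlap, so a difference between single libraries was not detectable at this depth.

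Within a library, the *TAP2* level per kilobase was 3.39%, 3.08% and 3.35% of the *TAP1* level in Control and 2.07%, 2.40% and 2.17% in SAMD1 KO. Its log2 difference was −0.57. This ratio was chosen after every clone had been seen above Control for *TAP1* and below it for *TAP2*, which fixes that the groups do not overlap, so no test is given.

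*TAPBP* had 566.2, 598.8 and 557.8 in Control and 497.4, 601.3 and 617.0 in SAMD1 KO, with clone 1 below and the other clones above every Control library. Its log2 fold change was −0.01 ± 0.10 (SE, limma adjusted p = 0.954), and the sign changed under some alternatives.

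*PSMB8* and *PSMB9* encode catalytic subunits that replace PSMB5 and PSMB6 when the immunoproteasome is built. *PSMB8* had 645.1, 551.8 and 646.0 in Control and 456.8, 513.2 and 461.4 in SAMD1 KO, with a mean of 614 ± 54.1 against 477 ± 31.3 (SD, n = 3). Every clone was below every Control library, with clone 2 the nearest to Control. The log2 fold change was −0.36 ± 0.10 (SE), with a 95% interval from −0.59 to −0.13 (limma p = 0.0076, adjusted p = 0.055, exact permutation p = 0.1), or 0.777 times the level of Control.

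*PSMB9* had 201.3, 202.5 and 181.0 in Control and 222.5, 181.4 and 250.9 in SAMD1 KO, and the groups overlapped. Its log2 fold change was 0.15 ± 0.15 (SE, 95% interval from −0.19 to 0.50, limma adjusted p = 0.533), and was 0.28 without SAMD1 KO clone 2, 0.10 without Control replicate 3 and 0.05 without clone 3. The estimates of these subunits, encoded side by side, had opposite signs, and the difference between them was not tested by itself.

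The subunits were also set against the constitutive ones that they replace, per kilobase and within each library. *PSMB8* stood at 7.04%, 6.73% and 7.56% of *PSMB5* in Control and 5.53%, 5.91% and 5.24% in SAMD1 KO, without overlap and with a log2 difference of −0.35 (exact permutation p = 0.1, two-sided, adjusted p = 0.3 over 3 ratios). *PSMB9* stood at 2.67%, 2.87% and 2.49% of *PSMB6* in Control and 3.33%, 2.52% and 3.25% in SAMD1 KO (log2 difference 0.17, and 0.10 to 0.30 when a library was left out, lowest without SAMD1 KO clone 1 and highest without clone 2, exact permutation p = 0.3, adjusted p = 0.45). *PSMB10*, the remaining immunoproteasome subunit, stood at 2.32%, 2.64% and 1.92% of *PSMB7* in Control and 1.94%, 2.09% and 2.63% in SAMD1 KO (log2 difference −0.05, exact permutation p = 0.9), and its sign was not stable, from −0.18 without SAMD1 KO clone 3 to 0.06 without Control replicate 2. The constitutive subunits were abundant in every library, and their log2 fold changes of −0.01 for *PSMB5*, −0.02 for *PSMB6* and −0.05 for *PSMB7* were each smaller than their standard error or close to it, with limma adjusted p of 0.940, 0.887 and 0.519.

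**Figure D2:**
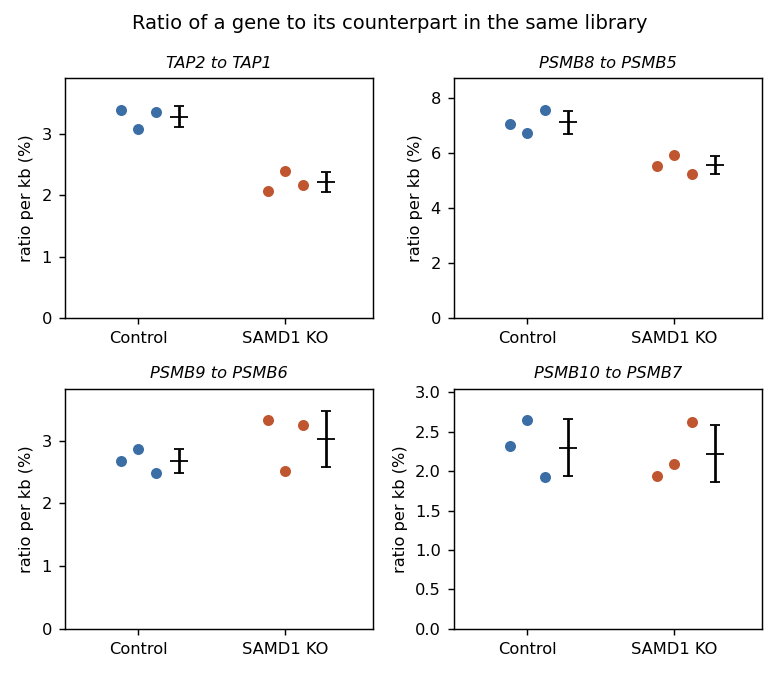
Ratio per kilobase of canonical transcript, in percent (vertical axes, from 0), of each named gene to its counterpart in the same library, for 3 Control libraries (blue) and 3 SAMD1 KO clones (orange), with mean ± SD in black. The *TAP2* to *TAP1* and *PSMB8* to *PSMB5* ratios are lower in every clone than in every Control library, and the other ratios overlap.

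*NLRC5*, the transactivator of class I genes, had 386.6, 369.8 and 417.0 in Control and 381.7, 413.0 and 406.6 in SAMD1 KO. The clones lay within the range of the Control libraries, and the log2 fold change was 0.03 ± 0.09 (SE, 95% interval from −0.18 to 0.25, limma adjusted p = 0.833). A change of *NLRC5* beyond the cut-off of 0.5 in either direction lies outside this interval.

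By groups, 4 of the 9 members had every clone below every Control library (*HLA-B*, *HLA-C*, *TAP2* and *PSMB8*) and 1 had every clone above (*TAP1*). The same was true of 18.6% of all tested genes for lower and 19.2% for higher. In their values the 4 lower members did not share the order of the clones: clone 2 was lowest for *HLA-B* and *HLA-C*, and clone 1 for *TAP2* and *PSMB8*. For each of the 4, the counting interval of the lowest clone overlapped that of another clone, so these orders are not settled. For *PSMB8*, clone 1 had 416.1 to 500.5 and clone 3 had 422.4 to 503.1. As a description over 6 libraries, the log2 values of *TAP2* and *PSMB8* had a Pearson r of 0.982, those of *B2M* and *PSMB9* 0.928, and those of *PSMB8* and *PSMB9* −0.672. The points share group, clone and library, so differences between groups and among clones both enter these values. So does the scaling: in Control, *PSMB8* had 564 reads in every library and *TAP2* had 30, 31 and 31. The Control pattern common to *TAP2* and *PSMB8* thus came mostly from the size factors. The groups of *B2M* and of *PSMB9* overlapped, and clone 2 was the lowest clone for both genes.

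**Figure D3:**
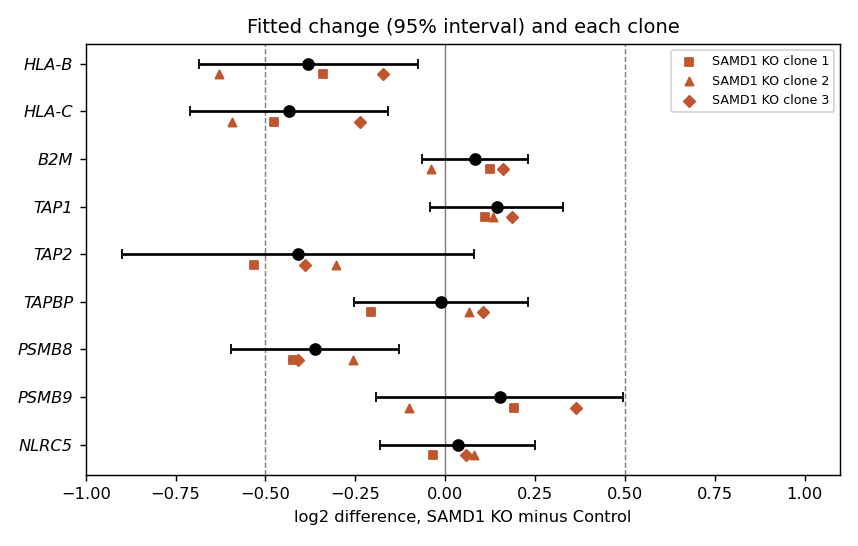
Log2 difference of SAMD1 KO minus Control (horizontal axis) for each member, with the limma estimate and its 95% interval in black and each clone's difference from the Control mean in orange below it. Dashed lines mark the cut-off of 0.5, which no estimate passes, and the intervals of *HLA-B*, *HLA-C* and *PSMB8* lie below 0.

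Per kilobase of canonical transcript, the members spanned a wide range in Control cells. *B2M* was highest with a normalized count of 4647 per kilobase, higher than 95.4% of tested genes, followed by *PSMB8* with 547, *HLA-B* with 254, *HLA-C* with 242, *PSMB9* with 192, *TAP1* with 181, *TAPBP* with 167, *NLRC5* with 57.7 and *TAP2* with 5.92, which was higher than only 4.46% of tested genes. Among neighbours in this order, the Control ranges per kilobase of *HLA-B* and *HLA-C* overlapped, as did those of *PSMB9* and *TAP1*, and the others were apart. In SAMD1 KO the means of *HLA-B* (197) and *HLA-C* (180) lay beside those of *TAP1* (199) and *PSMB9* (215). The light chain was far above each heavy chain per kilobase in both groups.

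Chromosome regions that are gained or lost in a clone move genes together, so the 40 nearest tested genes were checked for each member, with the members left out. Their median log2 difference from Control in a clone ran from −0.08 to 0.07 around the members on chromosomes 6 and 15, and was −0.13, −0.17 and 0.03 around *NLRC5* in clones 1, 2 and 3. With these shifts removed, the log2 fold change was −0.46 for *HLA-C* (limma adjusted p = 0.045), −0.40 for *HLA-B* (adjusted p = 0.095) and −0.33 for *PSMB8* (adjusted p = 0.057).

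The genes whose pattern over the 6 libraries was most like the mean of the centred log2 values of the 9 members were *NUDT9* (Pearson r 0.998), *ZNF300* (0.997) and *YBX3* (0.996). The likeness was chosen from 12773 genes on 6 points, of which 453 genes had an r above 0.9, and it is given as a description.

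Other genes in and around the pathway were read from lists, which included class I-like molecules and class II presentation genes. The lists held 119 genes, of which 100 were tested. Of these, 5 were called higher and 2 lower with limma, close to the shares of all tested genes, 5.77% and 2.08%. The median log2 fold change was −0.016, beside −0.0059 for all tested genes. The genes that passed the cut-off were class I-like surface molecules and transcription factors. The 5 became 3 without Control replicate 1, 2 without Control replicate 2 or 3, and 3 with the replicate number as a block, and the 2 became 1 without Control replicate 1 or 2 or SAMD1 KO clone 2.

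Among 13 tested other class I heavy chains and class I-like molecules, 3 were called higher and 1 lower, with a median of −0.09. Of all tested genes, 5.77% were called higher and 2.08% lower. *HLA-F*, a nonclassical heavy chain, had 51.5, 51.9 and 41.2 in Control and 71.2, 77.8 and 101.6 in SAMD1 KO (log2 fold change 0.77 ± 0.20 SE, limma adjusted p = 0.048), on 36 to 113 reads a library, and its call was lost under 6 alternatives (the block and each library left out but SAMD1 KO clone 1). It shares the uncertainty described for *HLA-B* and *HLA-C*. *MICB* and *ULBP1* encode ligands of the NK cell receptor NKG2D. *MICB* had 84.6, 69.5 and 77.9 against 122.6, 100.2 and 119.6 (0.55 ± 0.16 SE, limma adjusted p = 0.062), and its call was lost under 11 alternatives, edgeR and DESeq2 among them. *ULBP1* had 265.4, 216.2 and 242.8 against 329.3, 514.0 and 544.2 (0.91 ± 0.20 SE, limma adjusted p = 0.028), with clone 1 the nearest to Control, and was not called without Control replicate 2. *PROCR*, the protein C receptor with a class I-like fold, fell from 1253, 1193 and 1157 to 694.2, 648.0 and 775.3 (−0.77 ± 0.09 SE, limma adjusted p = 0.0025).

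Among 21 tested regulators of class I transcription, 2 were called higher and 1 lower, beside 5.77% and 2.08% of all tested genes. Their median was 0.02. *NFKB2* and *RELB* encode the subunits of the noncanonical NF-kappa B dimer. *NFKB2* had 5545, 5821 and 5616 in Control and 9553, 7789 and 9149 in SAMD1 KO (0.64 ± 0.08 SE, limma adjusted p = 0.0039). *RELB* had 1023, 1038 and 959.9 against 1375, 1703 and 2394 (0.82 ± 0.18 SE, limma adjusted p = 0.029), with clone 3 the highest, and was not called without Control replicate 3. *BATF3*, a transcription factor of the AP-1 family, had 344.3, 330.7 and 262.3 against 231.4, 146.0 and 166.4 (−0.80 ± 0.20 SE, limma adjusted p = 0.039), and was not called without Control replicate 1 or 2 or SAMD1 KO clone 2 or 3.

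The interferon-linked regulator *IRF1* was present in all libraries and was not called. It had 617.7, 599.8 and 591.1 in Control and 731.7, 606.5 and 660.2 in SAMD1 KO (0.14 ± 0.09 SE, limma adjusted p = 0.344). The 40 nearest tested genes had a median of −0.56 in clone 2, and with regional shifts removed the value for *IRF1* was 0.35, still below the fold cut-off. It was 0.07 without SAMD1 KO clone 1. Of 12 tested genes of interferon receptors and their signal (mostly of interferon gamma, with the type I receptor genes *IFNAR1* and *IFNAR2*, *TYK2* and *USP18* in the same list), none was called with limma, edgeR or DESeq2, although 3 had an unadjusted p below 0.05 higher and 1 lower, beside 16.1% and 13.5% of all tested genes. The smallest p was that of the kinase gene *JAK1*, with 5177, 5238 and 5468 in Control and 6742, 6797 and 6338 in SAMD1 KO (0.32 ± 0.05 SE, limma adjusted p = 0.0093), a change below the fold cut-off.

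No gene was called with limma, edgeR or DESeq2 in the lists for peptide loading and trimming (10 tested, median −0.01), other proteasome subunits and activators (24, median −0.05), cytosolic peptidases (7, median −0.04) and class I turnover and repressors (12, median −0.05). In this order, 0, 5, 2 and 5 genes had an unadjusted limma p below 0.05. All of these were lower in SAMD1 KO, except 1 of the turnover genes. Of all tested genes, 16.1% had such a p and were higher, and 13.5% were lower. The smallest p of each list was that of *ERAP2*, an aminopeptidase that trims peptides (−0.64 ± 0.32 SE, limma adjusted p = 0.231), *PSME3*, a proteasome activator (−0.23 ± 0.05 SE, limma adjusted p = 0.020), *NRDC*, a metallopeptidase (−0.18 ± 0.05 SE, limma adjusted p = 0.070), and *EED*, a Polycomb subunit (−0.27 ± 0.06 SE, limma adjusted p = 0.026). *ERAP2* had 4471, 4321 and 4458 in Control and 3852, 1555 and 3766 in SAMD1 KO, so its value was set by clone 2, in which the 40 nearest tested genes had a median of −0.66, and the log2 fold change was −0.21 without that clone. Of the 14 genes of class II presentation, 4 had no reads and only *HLA-DRB1* was tested, with 14.9 to 26.3 in Control and 1.7 to 20.7 in SAMD1 KO (−1.66 ± 0.73 SE, limma adjusted p = 0.180), and it was called lower without clone 3 (−2.52) and stood at −1.02 without clone 2.

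**Figure D4:**
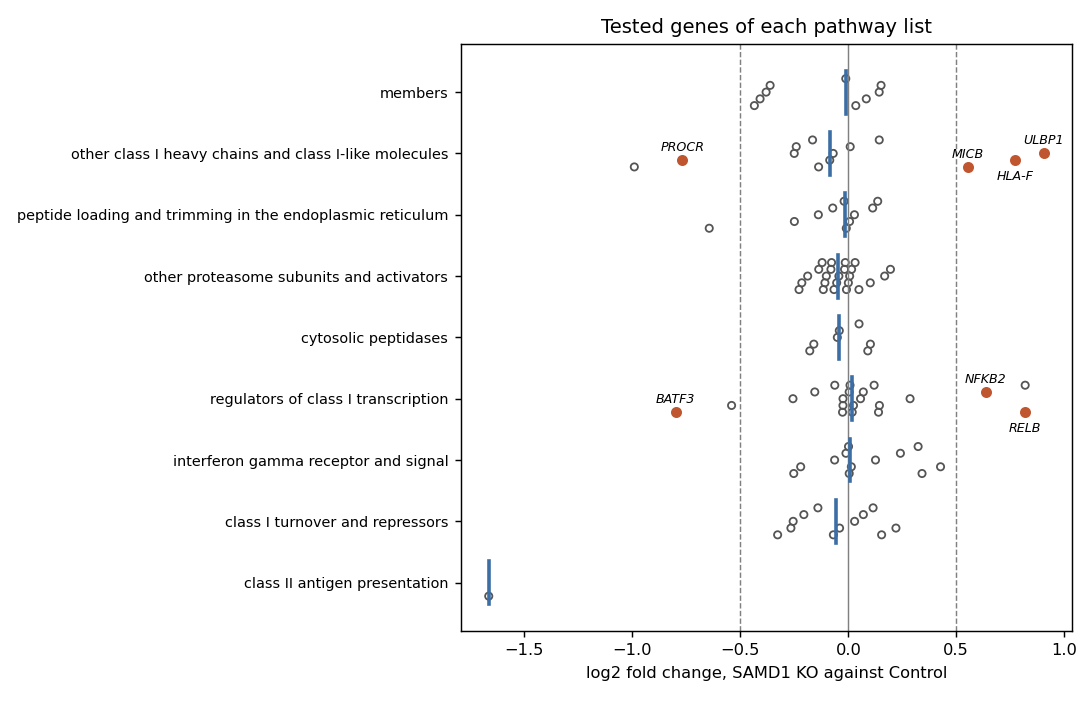
Log2 fold change between SAMD1 KO and Control (horizontal axis, above 0 where SAMD1 KO is higher) for each tested gene of the pathway lists, with called genes filled in orange and named, other genes as open circles, the median of each list as a blue bar and the fold cut-off of 0.5 as dashed lines. No gene of the row labelled members passes the cut-off, and called genes appear among the class I-like molecules and the transcription regulators.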

How the data were processed

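RNA-seq of 3 Control and 3 SAMD1 KO libraries of PaTu8988t cells was analysed. The authors aligned reads to the human transcriptome (GenCode 43, hg38) with RNA-STAR, and the submitters' processing notes name featureCounts and DESeq2. The deposited signal is a normalized count: the authors scaled each library's reads by a DESeq2 size factor. Since 100% of values were whole multiples of a step (tolerance 0.01), reads were recovered (35589477 to 45172216 per library). For SAMD1 KO replicate 1 the step, 0.9888, is so close to 1 that an automatic check did not accept the recovery, and edgeR and DESeq2 rest on it there. The number of libraries limits the precision, and counting intervals cover counting error only. That Control replicates came from separate cultures is not stated, so their spread may be technical. No column was left unmapped (0). A second deposited table holds the authors' own comparison (fold changes and p-values) and was not used.

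The main test was limma 3.58.1 with a trend (R 4.3.3), on the log2 of the normalized count plus 1, for 12773 genes averaging 10 or more, with Benjamini-Hochberg adjustment over these genes. Since the values are not counts, edgeR 4.0.16 (quasi-likelihood) and DESeq2 1.42.0 served on recovered reads as alternatives, beside the pseudocount, the filter, rescaling by the 75th percentile, the replicate block, leaving out each library, and removal of regional shifts. On simulated counts of 12727 genes for this comparison, each tool recovered 200 of 200 genes changed 2-fold, and limma, edgeR and DESeq2 called 22, 22 and 6 unchanged genes. Changes as small as those of the members were not simulated. The simulated libraries all had the same dispersion, and no gene with few reads was changed. Since the real clones varied far more than the Control libraries, these figures do not give the power of the real comparison. Ratios were tested by exact permutation in SciPy 1.17.1. Positions are from GENCODE 44, and 98.5% of tested genes had one.

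The members and lists were chosen with earlier results of these data known. Named are all members, the constitutive subunits and *PSMB10*, *SAMD1*, *IRF1*, *HLA-E*, the called genes of each list or else its gene with the smallest p, and the 3 genes most like the members' mean. Cell type markers were read as sums. Some genes that the rule for named genes covers are not reported here.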

Additional observations from a re-analysis of the deposited data

How the results depend on the processing

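The direction of *HLA-B*, *HLA-C*, *TAP2*, *PSMB8*, *B2M*, *TAP1* and *PSMB9* was the same under every alternative run for them, with log2 fold changes of −0.48 to −0.26 for *HLA-B*, −0.53 to −0.36 for *HLA-C*, −0.44 to −0.32 for *PSMB8* and −0.47 to −0.31 for *TAP2* (not tested with a mean of at least 50), 0.04 to 0.14 for *B2M*, 0.12 to 0.18 for *TAP1* and 0.05 to 0.28 for *PSMB9*. The number of members called lower was 0, with an adjusted p in the cut-off also 0, with no fold threshold 2, and 0 to 1 when a library was left out, the 1 being *HLA-C* without SAMD1 KO replicate 3. The number with an unadjusted p below 0.01 was 2, with 1 under rescaling by the 75th percentile and 0 with the replicate number as a block. It was 0 to 2 when a library was left out: 0 without Control 1, Control 3 or SAMD1 KO 1, and 1 without Control 2 or SAMD1 KO 2. The adjusted p of *HLA-C* ran from 0.0167 to 0.205 and was below 0.05 with DESeq2, with regional shifts removed and without SAMD1 KO 3. That of *PSMB8* ran from 0.0209 to 0.222 and was below 0.05 with DESeq2 and without SAMD1 KO 2, and that of *HLA-B* ran from 0.0391 to 0.296.

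Same-numbered libraries of the groups had correlations of their deviations of 0.039, 0.134 and 0.032, so the numbers were not taken to pair the samples. With the block, 0 members were called higher and 0 lower, the log2 fold changes are unchanged by construction, and p was 0.015 for *HLA-C*, 0.021 for *PSMB8* and 0.025 for *HLA-B*. In the other lists, the genes called higher numbered 5, and 3 with the block. They numbered 2 to 5 when a library was left out (3 without Control 1, 2 without Control 2 or Control 3). Those called lower numbered 2, 7 with no fold threshold and 1 to 2 when a library was left out (1 without Control 1, Control 2 or SAMD1 KO 2). Without genes in regions shifted by over 0.2 in a clone, an alternative added after seeing the data, 4 were called higher and 2 lower. *MICB* and *HLA-F* kept their direction but lost the call in 11 and 6 settings, among them the block. The other alternatives kept these counts within 1.5 times.

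Signs changed for values near 0. *TAPBP* was 0.0074 after rescaling by the 75th percentile, 0.034 with regional shifts removed, and −0.07 to 0.085 when a library was left out (0.019 without Control 2, 0.085 without SAMD1 KO 1), and *NLRC5* was −0.0048 to 0.081 when a library was left out (−0.0048 without Control 2). With rescaling, *PSMB5* was 0.011 and *PSMB6* 0.0017. With regional shifts removed, *PSMB6* was 0.076, *PSMB7* 0.0083 and *PSMB10* 0.021. When a library was left out, *PSMB5* was −0.045 to 0.035 (above 0 without Control 1 or SAMD1 KO 1) and *PSMB6* −0.07 to 0.035 (above 0 without the same libraries). The cause was not tested. The *PSMB10* to *PSMB7* ratio was 0.059 without Control 2, 0.042 without SAMD1 KO 1 and −0.177 without SAMD1 KO 3, and the *PSMB9* to *PSMB6* ratio 0.098 to 0.297 when a library was left out. The log2 difference of the *TAP2* to *TAP1* ratio was −0.45 with a pseudocount of 10. Depth limits *TAP2*, which had at most 31 reads in a library.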
